A study of Mus musculus with 12 samples.

Results

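The mitochondrial chromosome of the mouse carries 37 genes, of which 13 code for proteins, 2 for rRNAs and 22 for tRNAs. The 9 genes described here are named protein-coding genes of that chromosome: mt-Nd1, mt-Nd2, mt-Nd4 and mt-Nd5 of respiratory complex I, mt-Cytb of complex III, mt-Co1, mt-Co2 and mt-Co3 of complex IV, and mt-Atp6 of the ATP synthase. They were taken by name, not by a measured value, from the read counts of 48709 genes in each library. Earlier results of these data were known when they were chosen. All 9 had an entry in the count files, but only 6 had any counts: mt-Co2, mt-Co3 and mt-Atp6 stood at 0 in all 12 libraries. The 6 with counts held 3.48 to 4.30% of a library, did not differ detectably between mice with a myocardial infarction and sham-operated mice, and included the gene with the most counts in every library, mt-Co1.

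RNA came from the CA1 field of the mouse hippocampus, dissected under a microscope. There were 6 MI libraries from mice whose coronary artery was ligated (myocardial infarction) and 6 Sham libraries from mice that had the same operation without ligation. Polyadenylated RNA was sequenced as single-end reads of 50 bases. The sources used here do not give strain, age, sex or the time between surgery and dissection. Nor do they tie libraries to single mice, so every p-value measures the spread between libraries, which may be technical. In dissected tissue, fewer cells of a type and less RNA per cell cannot be told apart.

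Library totals ran from 20764133 to 35643127 counts. All 10 CA1 pyramidal markers were detected, with a summed level of 928 to 2203 CPM, the count scaled to library size (here by TMM), and markers of dentate granule cells, a neighbouring field, summed to 119 to 429 CPM in MI and 156 to 1042 in Sham. Sham 6 held the dentate maximum of 1042. Sham 1 held the maximum of fibroblast and meningeal markers, 515 CPM, and the CA1 minimum. In 6 libraries, 3 in each group, the counts of 4 Y-linked genes exceeded those of Xist, and in the other 6 the reverse held. The study did not define these sets.

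The respiratory chain of the inner mitochondrial membrane passes electrons from NADH and other donors to oxygen and pumps protons, and the ATP synthase uses the proton gradient to make ATP. Its complexes I, III, IV and V are built from subunits of both genomes, while complex II is made from nuclear genes alone. The mitochondrial DNA is transcribed into long RNAs that are cut at the tRNAs into rRNAs and mRNAs, and most of the mRNAs receive a short poly(A) tail, which is why they appear in libraries of polyadenylated RNA. Neurons meet most of the cost of their ion pumping and synaptic transmission by respiration.

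Pieces of mitochondrial DNA are also found inserted in nuclear chromosomes. The stretches shown next are the first 60 bases of the 3 members without counts, each beside the same stretch of an annotated nuclear pseudogene on chromosome 1 (GENCODE M21 transcripts, GRCm38/mm10). They are shown because a read of 50 bases from either place would read the same. The pseudogenes were named after the counts were seen. The mitochondrial stretches are chrM:7013-7072 (mt-Co2), chrM:8607-8666 (mt-Co3) and chrM:7927-7986 (mt-Atp6), on the plus strand. Those of the pseudogenes are chr1:24615506-24615565 (Gm28661), chr1:24613912-24613971 (Gm28437) and chr1:24614592-24614651 (Gm10925), on the minus strand.
mt-Co2: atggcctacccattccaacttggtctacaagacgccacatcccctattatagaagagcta
Gm28661: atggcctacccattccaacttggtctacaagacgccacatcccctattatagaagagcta
mt-Co3: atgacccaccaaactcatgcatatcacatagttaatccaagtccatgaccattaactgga
Gm28437: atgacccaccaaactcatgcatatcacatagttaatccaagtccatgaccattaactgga
mt-Atp6: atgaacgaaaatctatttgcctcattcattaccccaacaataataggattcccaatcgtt
Gm10925: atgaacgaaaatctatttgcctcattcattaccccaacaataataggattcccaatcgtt
The identity ran through the whole of each pseudogene: 681 of 681 aligned bases for Gm28661, 783 of 783 for Gm28437 and 678 of 678 for Gm10925. Another copy of mt-Co2, on chromosome 2, Gm13341, differs from it in the same stretch (chr2:22587903-22587962, minus strand), and the bases that differ from mt-Co2 are in capitals.
Gm13341: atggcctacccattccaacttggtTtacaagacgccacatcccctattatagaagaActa

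Each member was cut into all its windows of 50 bases, the length of a read, and each window was looked for without mismatch, on both strands, in all other annotated transcripts. In mt-Co2, the subunit that accepts electrons from cytochrome c, 635 of 635 windows were found elsewhere. The numbers were 734 of 735 for mt-Co3 and 629 of 632 for mt-Atp6, the proton channel subunit of the ATP synthase. These are the 3 members at 0. In mt-Nd4, a proton-pumping subunit of complex I, 827 of 1329 windows (62.2%) were shared with the pseudogene Gm28439, and in mt-Co1, the catalytic subunit of complex IV, 765 of 1496 (51.1%) were shared with other transcripts. The shares were 8.19% for mt-Nd2 and 7.61% for mt-Nd5, and no window of mt-Nd1 or mt-Cytb was found elsewhere. All 6 members with unshared stretches of this size had 66338 counts or more in every library. The sources used here do not say how reads that map to several places were treated, and the part of the shared windows in the zeros was not tested.

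As annotated, Gm28439 ends inside mt-Nd4, and the sequence of chromosome 1 beyond that end was not read here. In the stretch below (chrM:11013-11072, plus strand) the bases in lower case are also in Gm28439 and those in capitals lie beyond its end.
mt-Nd4: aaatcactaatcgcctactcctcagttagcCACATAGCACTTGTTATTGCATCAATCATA
The annotated copy of mt-Co1 on chromosome 1, Gm29216, begins inside the gene, at chrM:6381, and the sequence before its start was not read either. In the pair that follows (chrM:6381-6440 and chr1:24616138-24616197, minus strand) capitals mark the bases that differ, which are all 6 differences in the 492 aligned bases of this pair.
mt-Co1: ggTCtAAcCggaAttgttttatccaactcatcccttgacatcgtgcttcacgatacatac
Gm29216: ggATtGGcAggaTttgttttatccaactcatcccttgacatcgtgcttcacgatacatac

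The pseudogenes of chromosome 1 lie side by side in the order of the mitochondrial genes. There are 7 of them between 24611535 and 24616197, a span of 4663 bases, and they align to positions 6381 to 11042 of the mitochondrial chromosome with at most 1 base of shift. The 11 mitochondrial genes wholly inside that stretch had next to no counts: 9 were at 0 in all 12 libraries, mt-Nd3, a small subunit of complex I, had 7 to 23 counts, and the arginine tRNA gene mt-Tr had 4 to 27. Among those at 0 were mt-Nd4l, another small subunit of complex I with 245 of 248 windows shared, and mt-Atp8, a small subunit of the ATP synthase. No window of mt-Atp8 was found in another annotated transcript, and the sequence between the pseudogenes on chromosome 1 was not read here. Of the 24 genes outside the stretch, 3 were at 0, all of them tRNA genes: mt-Tw, mt-Ty and mt-Th. The 7 pseudogenes themselves held 17 to 48 counts per library in sum.

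**Figure D1:**
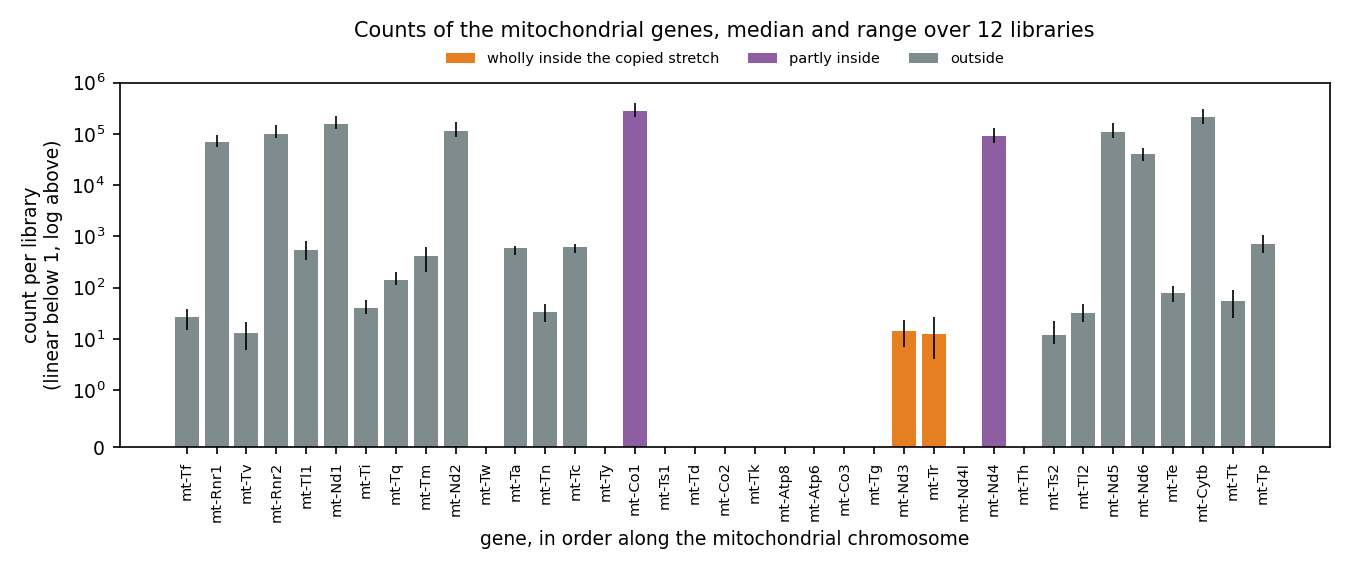
Median count per library (bars) and range over the 12 libraries (lines) for the 37 genes in their order along the mitochondrial chromosome, on an axis that is linear below 1 and logarithmic above it. Orange marks genes wholly inside the stretch that chromosome 1 copies, purple the genes partly inside it and grey the genes outside: mt-Co1 and mt-Nd4, each partly inside, have tall bars, and between them only mt-Nd3 and mt-Tr rise above 0.

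For the 3 members at 0 the data therefore give a limit on counted reads and no level. A count of 0 allows up to 3 counts, which is 0.0842 CPM in the deepest library and 0.144 CPM in the shallowest. This limit covers counting error only and says nothing about reads that were not counted. No fold change was computed for mt-Co2, mt-Co3 or mt-Atp6.

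Among the 6 measured members, each a single exon on the plus strand of chrM (GRCm38/mm10), the counts were high in every library. They lie at chrM:2751-3707 (mt-Nd1, ENSMUSG00000064341), chrM:3914-4951 (mt-Nd2, ENSMUSG00000064345), chrM:5328-6872 (mt-Co1, ENSMUSG00000064351), chrM:10167-11544 (mt-Nd4, ENSMUSG00000064363), chrM:11742-13565 (mt-Nd5, ENSMUSG00000064367) and chrM:14145-15288 (mt-Cytb, ENSMUSG00000064370). The end of mt-Nd5 overlaps mt-Nd6 by 14 bases and the start of mt-Nd4 overlaps mt-Nd4l by 7. By count, mt-Co1 was the first of all 48709 genes in all 12 libraries, mt-Cytb, the subunit of complex III that binds ubiquinol, ranked 2 or 3, and mt-Nd1, a complex I subunit at the ubiquinone site, 3 or 4. The pumping subunits mt-Nd2 and mt-Nd5 ranked 5 to 6 and 6 to 8, and mt-Nd4 ranked 9 to 11. Counting error was thus small beside the spread between libraries: it was 0.328% or less of the mean for each of these genes.

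Together the 6 held 3.77 ± 0.194% of a library in MI (SD, n = 6) and 3.87 ± 0.290% in Sham (SD, n = 6). The MI libraries ran from 3.63% in MI 3 to 4.08% in MI 2, with a median of 3.66%. Those of Sham ran from 3.48% in Sham 3 to 4.30% in Sham 6, with a median of 3.85%. Sham held both the lowest and the highest library, and the range of MI lay within that of Sham. The difference between the group means, -0.106 percentage points, was smaller than the SD of either group, and it was -0.0210 without Sham 6. The sum over all genes of the mitochondrial chromosome was 4.31 to 5.15% of a library.

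The share also differed between the sets of libraries told apart by Xist. It averaged 3.65% over the 6 libraries with Y-linked counts and 3.99% over the 6 with Xist. Within the former, the 3 MI libraries averaged 3.64% and the 3 Sham libraries 3.66%. Within the latter, they averaged 3.89% and 4.09%. The MI mean was below the Sham mean in each set, with differences of -0.0144 and -0.198 percentage points. These are shares of total counts. In the Y-linked set the TMM-scaled fit gave the other sign, with a median log2 fold change of 0.03 over the members with counts. With 3 libraries a group in each set, no test of these shares was made.

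**Figure D2:**
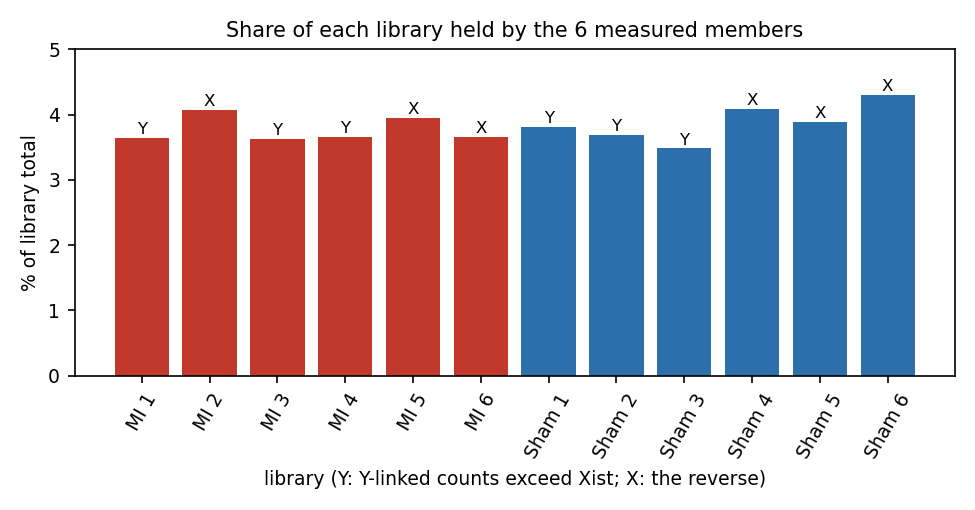
Percentage of the library total held by the 6 measured members, 1 bar per library, MI in red and Sham in blue; Y marks libraries whose Y-linked counts exceed those of Xist and X the others. The bars run from 3.48% (Sham 3) to 4.30% (Sham 6), and the 2 groups overlap.

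In the complex I genes, mt-Nd1 ran from 5984 to 6512 CPM of the library total in MI (median 6226) and from 5918 to 6687 in Sham (median 6221). Its group medians were thus almost the same, and it had the smallest spread of the 6. The level of mt-Nd2 ran from 4205 to 5149 CPM in MI (median 4467) and from 4155 to 5336 in Sham (median 4702). MI 5 and MI 2 were the highest in MI and Sham 6 and Sham 4 the highest in Sham, and the groups overlapped. The level of mt-Nd5 ran from 3723 to 4789.5 CPM in MI (median 4047) and from 3886 to 4974 in Sham (median 4297), with the top of MI in MI 2 and the top of Sham in Sham 6. The level of mt-Nd4 ran from 3388 to 3823 CPM in MI (median 3532) and from 3159 to 4244 in Sham (median 3648). All 6 MI libraries lay between the extremes of Sham, which were Sham 3 and Sham 6.

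In complex III, mt-Cytb ran from 7705 to 8749 CPM in MI (median 7998) and from 7523 to 9263 in Sham (median 8509). In complex IV, mt-Co1 ran from 10548 to 11880.1 CPM in MI (median 10834) and from 10163 to 12551 in Sham (median 11052). For both genes MI 2 was the highest MI library, Sham 3 the lowest Sham library and Sham 6 the highest, and the groups overlapped.

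**Figure D3:**
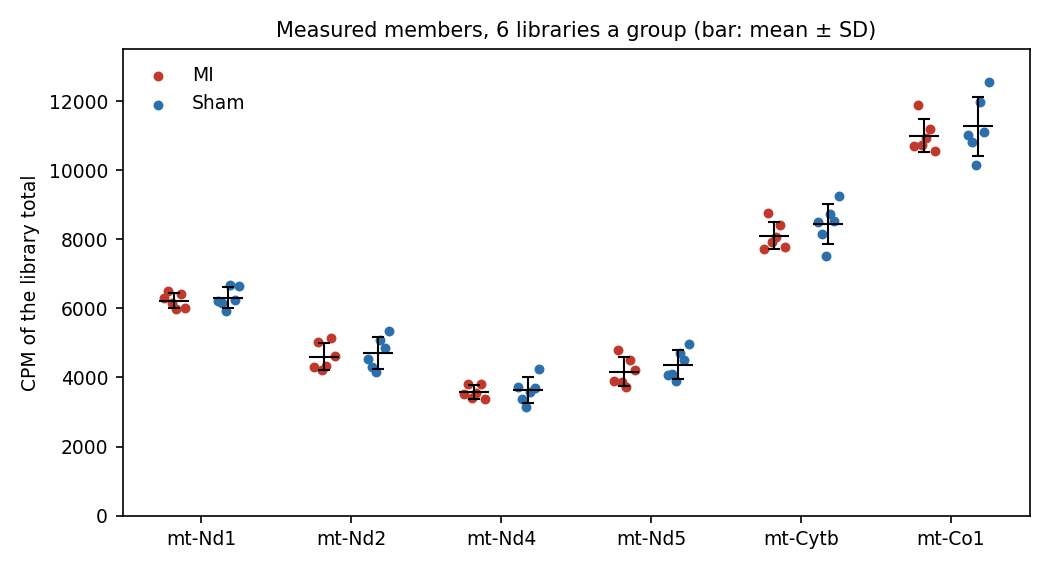
CPM of the library total for the 6 measured members, 1 point per library in order of library number from left to right, MI in red and Sham in blue, with the mean and SD of each group in black. The groups overlap for every gene, from mt-Co1 (11001 ± 486 in MI, 11267 ± 857 in Sham) down to mt-Nd4 (3578 ± 193 and 3633 ± 368).

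Whether infarction changed these RNAs was asked by comparing MI with Sham across all genes. None of the 6 measured members differed: each had a log2 fold change slightly below 0, between -0.07 and -0.02, and the range of MI overlapped that of Sham for all 6. Of 6 members, 0 passed an adjusted p of 0.05 (edgeR, quasi-likelihood, Benjamini-Hochberg over 16829 genes), where 0.00% of all genes were called. At an unadjusted p under 0.05 there were 0 of 6 members and 1270 genes (7.55%). DESeq2 called 10 genes and limma-voom 0, with no member among them. The median log2 fold change of the 6 was -0.03, beside -0.01 for all genes tested, of which 47.6% were positive.

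The largest of the 6 differences was that of mt-Nd5, with a log2 fold change of -0.07 (SE 0.09, adjusted p 0.897 in edgeR), and mt-Cytb followed with -0.06 (SE 0.07, adjusted p 0.891). The values were -0.03 for mt-Nd2 (SE 0.08) and mt-Co1 (SE 0.07) and -0.02 for mt-Nd4 (SE 0.08) and mt-Nd1 (SE 0.05). For mt-Nd1 the 95% interval of the log2 fold change reached from -0.13 to 0.10, and over all 6 members the intervals lay between -0.26 and 0.15, which is between 0.837 and 1.11 times the Sham level. Differences inside these intervals could not be told from 0. The direction was not firm either: without Sham 6 the values turned positive for mt-Nd1 (0.01), mt-Nd2 (0.01), mt-Nd4 (0.04) and mt-Co1 (0.01).

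Within the Y-linked set, 5 of the 6 were positive, from 0.01 for mt-Cytb to 0.06 for mt-Nd4, and mt-Nd5 was -0.04. The members' share of total counts was slightly lower in MI in that set, so its sign differed between share and fold change. In the libraries with Xist alone all 6 were negative, from -0.12 for mt-Cytb to -0.08 for mt-Nd1. The difference between the sets was tested as an interaction in edgeR, a test chosen after these signs were seen. Of 6 members 0 passed, with adjusted p from 0.671 to 0.871, while 2 of 16829 genes did.

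**Figure D4:**
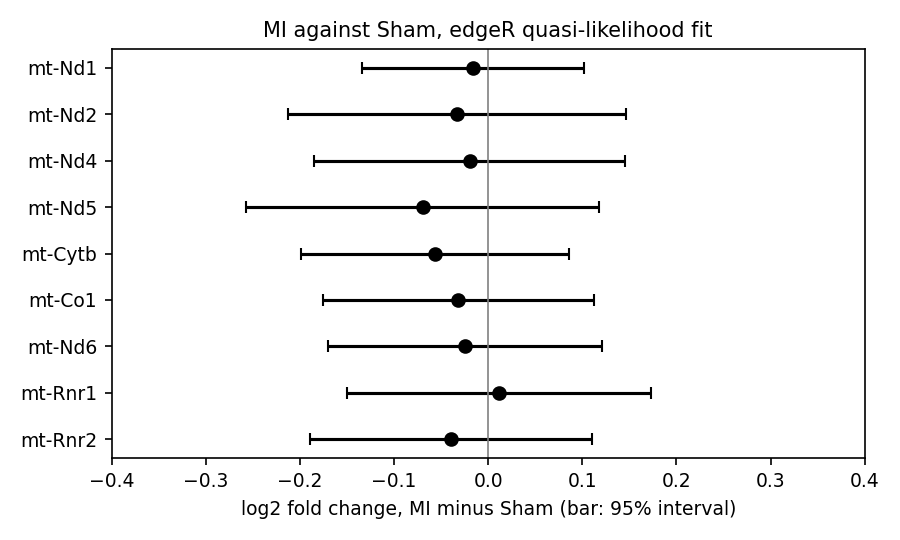
Log2 fold change, MI minus Sham, from the edgeR fit (points) with its 95% interval (bars) for the 6 measured members, mt-Nd6 and both mitochondrial rRNAs. Every interval includes 0, and the points of the 6 members lie between -0.07 and -0.02.

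Of the other RNAs of the mitochondrial chromosome, mt-Nd6 and both rRNAs had values near 0. The complex I gene mt-Nd6, the only protein gene on the minus strand, stood at 1557 ± 122 CPM in the MI libraries and 1588 ± 123 in those of Sham (SD, n = 6 each). Its log2 fold change was -0.02 (SE 0.07). Since the sources used here do not say whether counting used strand, its reads cannot be told from antisense reads of the other strand. The rRNA of the small subunit of the mitochondrial ribosome, mt-Rnr1, had 0.01 (SE 0.08), and mt-Rnr2, of the large subunit, -0.04 (SE 0.07). The log2 fold change of mt-Nd3, which had 7 to 23 counts, was larger and positive, 0.30, with an SE of 0.24. None of these 4 passed in edgeR, with adjusted p from 0.814 to 0.981. There were 5.58 ± 0.373 member counts per rRNA count in the MI libraries and 5.65 ± 0.648 in those of Sham (SD, n = 6 each). Both extremes, 4.71 in Sham 1 and 6.45 in Sham 6, were Sham libraries.

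The make-up of the members' counts was steady. Of the sum over the 6, mt-Co1 took 29.2 ± 0.541% in MI and 29.1 ± 0.313% in Sham, and mt-Cytb 21.5 ± 0.355% and 21.8 ± 0.351%. For mt-Nd1 the shares were 16.5 ± 0.494% and 16.3 ± 0.536%, for mt-Nd2 12.2 ± 0.553% and 12.1 ± 0.356%, for mt-Nd5 11.0 ± 0.609% and 11.3 ± 0.338%, and for mt-Nd4 9.50 ± 0.196% and 9.37 ± 0.421% (SD, n = 6 each). All 6 shares differed by less than 1 SD between the groups. Over the 12 libraries the highest share was 1.05 times the lowest for mt-Co1 and 1.16 times for mt-Nd5. The members thus moved more together, as a part of the library, than against each other.

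Compared per kilobase of exon, the order of the mean levels was mt-Cytb, mt-Co1, mt-Nd1, mt-Nd2, mt-Nd4 and mt-Nd5. In CPM per kilobase over all 12 libraries, mt-Cytb had 7237 ± 446 and mt-Co1 7207 ± 439 (SD, n = 12), which is no difference beyond their spread, and mt-Cytb was the higher of the pair in only 4 of 12 libraries. The levels of mt-Nd1 (6549 ± 266), mt-Nd2 (4487 ± 399.9), mt-Nd4 (2616 ± 204) and mt-Nd5 (2341 ± 227) kept this order in all 12 libraries. The length that could yield a read of its own differs from the exon length where windows are shared. Per 1000 unshared windows, a scale chosen after the zeros were seen, mt-Co1 rose to 15231 ± 928 CPM and mt-Nd4 to 7182 ± 561, beside 7561 ± 466 for mt-Cytb, 6902 ± 280.3 for mt-Nd1, 5129 ± 457 for mt-Nd2 and 2604 ± 252 for mt-Nd5. On that scale mt-Co1 was 2.01 times mt-Cytb, and mt-Nd4 moved from the fifth place to the third, above mt-Nd1 in 8 of 12 libraries. The levels of mt-Co1 and mt-Nd4 relative to the other members therefore depend on the scale, while mt-Nd5 was lowest on both.

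The spread of these genes between libraries lay among that of other genes. Within groups the coefficient of variation of the TMM-scaled CPM was 5.07% for mt-Nd1, 7.21% for mt-Cytb, 7.34% for mt-Co1, 9.28% for mt-Nd4, 10.2% for mt-Nd2 and 10.8% for mt-Nd5. The median was 9.54% over all genes that averaged 50 counts or more and 8.73% over those that averaged 10000 or more. Each member varied more in Sham than in MI, for example mt-Nd4 by 11.9% against 5.57%, and the same was true of the medians of all genes with at least 50 counts, 10.8% against 7.32%.

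Across the 12 libraries the 6 members rose and fell together, with Pearson's r of log2 CPM from 0.790 (mt-Nd4 and mt-Nd5) to 0.959 (mt-Cytb and mt-Co1) over the 15 pairs. These values describe the same 12 libraries, which share depth and scaling, and carry no test. Against the log2 of the members' summed CPM, r was 0.792 for mt-Nd6, 0.442 for mt-Rnr2 and 0.011 for mt-Rnr1, so the rRNA near the start of the transcript did not follow the mRNAs. Of 12725 nuclear protein-coding genes with at least 50 counts on average, those most like the members were Magohb, a paralog of an exon junction complex protein (0.930), Sft2d2 (0.912), Pla2g7, a phospholipase that cleaves platelet-activating factor (0.905), Fkbp14, a prolyl isomerase of the endoplasmic reticulum (0.905), and the histone gene Hist1h2bc (0.900). Most unlike were Psmb10, a subunit of the immunoproteasome (-0.911), Fam216a (-0.911), Ppp2r2d, a regulatory subunit of protein phosphatase 2A (-0.907), Enkur (-0.896) and Pfdn1, a subunit of prefoldin (-0.890). The 5th and 95th percentiles over these genes were -0.691 and 0.701.

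Nuclear subunit genes of the respiratory complexes, with complex II included, were set beside the members. Of 76 nuclear subunit genes of complexes I to V tested, 0 were called in either direction in edgeR. Positive log2 fold changes were found in 72 of them, where 47.6% of all genes were positive. Their median was 0.10, beside -0.03 for the 6 members and -0.01 for all genes. The medians were 0.12 for 36 genes of complex I, 0.07 for 4 of complex II, 0.10 for 9 of complex III, 0.11 for 11 of complex IV and 0.07 for 16 of complex V. At an unadjusted p under 0.05 there were 26 of the 76, all positive, where the share of all genes was 7.55%. This list had been seen to be positive in earlier results of these libraries, so its direction is not independent evidence. The difference between the nuclear and the mitochondrial genes was not tested. All 12 oligodendrocyte markers were positive too, with a summed level of 5325 to 6719 CPM in MI and 2894 to 5873 in Sham. Markers of CA1 pyramidal cells were positive in 9 of 10, with 1443 to 1828 CPM in MI and 928 to 2203 in Sham. All 9 dentate markers (median log2 fold change -0.48) and all 13 fibroblast and meningeal markers (-0.85) were negative, the latter with 118 to 251 CPM in MI and 86.2 to 515 in Sham. The dentate markers summed to 119 to 429 CPM in MI (median 272) and 156 to 1042 in Sham (median 225), with the 1042 in Sham 6. By median library the dentate sum was thus higher in MI, against the sign of the fold changes. Fold changes of these markers without Sham 6 were not looked at. The part of these cell types in the nuclear values was not tested.

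The genes named for each complex were those with its smallest unadjusted p. In complex I, the TMM-scaled level of Ndufa7 was 44.2 ± 3.51 CPM in the 6 MI libraries and 37.7 ± 1.30 in the 6 Sham libraries (SD). The log2 fold change of Ndufa7 was 0.23 (SE 0.05), and that of Ndufa13 was 0.16 (SE 0.05). Both are accessory subunits. For the iron-sulfur subunit Sdhb of complex II the value was 0.11 (SE 0.06), and for its membrane anchor Sdhd 0.08 (SE 0.05). The small complex III subunits Uqcrq and Uqcr10 had 0.15 (SE 0.05) and 0.19 (SE 0.07). Those of complex IV, Cox6a1 and Cox8a, had 0.21 (SE 0.07) and 0.18 (SE 0.06). The ATP synthase genes Atp5e and Atp5f1 had 0.13 (SE 0.04) and 0.12 (SE 0.04). None of these 10 passed in edgeR, where the adjusted p was 0.597 for each but Sdhb (0.690) and Sdhd (0.777). The authors' deposited tables hold 542 genes higher and 517 lower in MI, which take in 3.13% and 2.97% of the 16829 genes tested here, and list 0 of the 9 members. The authors' deposited table of genes higher in MI lists 19 of the 76 nuclear subunit genes, among them Ndufa7 with a log2 fold change of 0.16. In the authors' deposited table of genes lower in MI, 0 of the 76 are listed.

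Over the libraries the nuclear subunit genes ran against the members. Of 75 with at least 50 counts on average, 71 had a negative r with the members' sum, with a median of -0.524, where the median over all 12725 genes was 0.014 and 49.0% were negative. As a mean over the 76 genes, Pearson's r with the members was -0.620 and Spearman's rho -0.287 over 12 libraries, and r was -0.287 without MI 2 and Sham 6, the libraries farthest from the members' median. The relation of the means was thus weaker without those libraries. They were picked by the members' own level, which narrows its range, so how far the relation rests on them cannot be told. With group means subtracted, 71 of the 76 single genes had a negative r, with a median of -0.522. Sham 6 had the highest share of members and the lowest mean of nuclear subunit genes. It also held the highest summed level of dentate markers (1042 CPM, beside 156 to 283 in the other Sham libraries and 119 to 429 in MI), microglial markers (452) and astrocyte markers (2984), and the lowest of interneuron markers (872) and fibroblast markers (86.2). For each list, r with the members over the 12 libraries was taken from the mean log2 CPM of its markers, not from their sum. It was 0.710 for dentate, 0.758 for microglial, 0.680 for astrocyte and -0.760 for ependymal markers, of which 3 of 6 were tested. These were the largest in size of the marker lists. The others ran from -0.485 (fibroblast and meningeal) to 0.556 (choroid plexus), and none was computed without Sham 6. The part of these cell types in the relation was not tested.

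**Figure D5:**
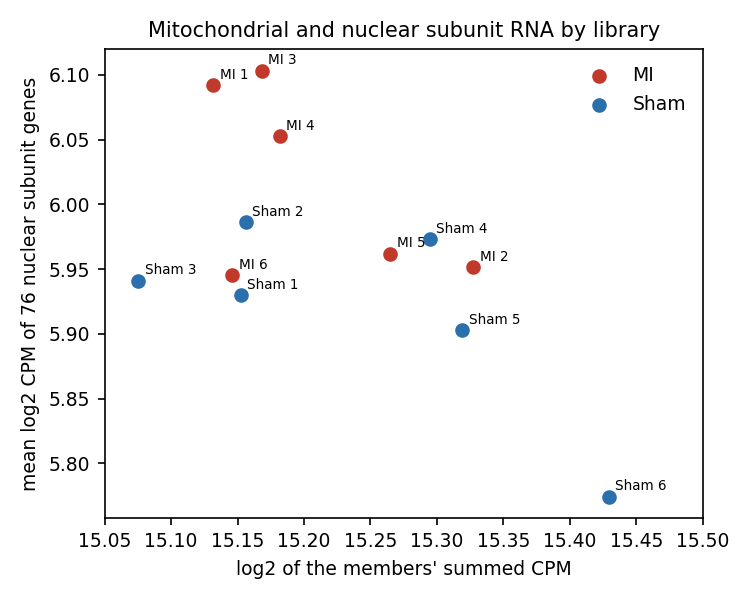
Each point is 1 library (MI in red, Sham in blue): the log2 of the members' summed TMM-scaled CPM on the horizontal axis against the mean log2 CPM of 76 nuclear subunit genes on the vertical axis, neither axis starting at 0. Sham 6 lies alone at the lower right, and Pearson's r falls from -0.620 to -0.287 in size without it and MI 2.

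Nuclear genes that copy, transcribe, process and translate the mitochondrial genome were listed together with regulators of respiratory genes, Esrra and Nrf1 among them. As a list these genes were near 0. Of 48 tested, 0 were called in edgeR, 29 were positive and the median was 0.01. Over all genes tested 47.6% were positive. Only 1 of the 48 had an unadjusted p under 0.05, where the share of all genes was 7.55%. That gene was Esrra, a nuclear receptor that drives genes of respiration. It stood at 46.2 ± 2.18 CPM in the 6 MI libraries and 39.8 ± 4.20 in the 6 Sham libraries (SD), and its log2 fold change was 0.21 (SE 0.07, adjusted p 0.597 in edgeR). In order of unadjusted p, not of size, the next positive genes were the elongation factor gene Tufm (0.16), the nuclease gene Mgme1 (0.16), the RNA-binding protein gene Tbrg4 (0.10) and Nrf1, a transcription factor of respiratory genes (0.09). In the same order the negative genes were Fastkd2 (-0.07), Angel2 (-0.06), the termination factor family gene Mterf3 (-0.06), the initiation factor gene Mtif2 (-0.03) and the transcription elongation factor gene Tefm (-0.09). The smallest adjusted p among these 9 was 0.690 in edgeR.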

How the data were processed

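Counts were analysed from 12 libraries, 6 MI and 6 Sham. The authors deposited raw counts, as whole numbers for each Ensembl gene. FastQC 0.11.5, STAR 2.5.2b, featureCounts, Subread 1.5.1 and mm10 are named in the submitters' processing notes; the sources used here do not give strand or multimapping settings. The authors also deposited tables of log2 fold changes, adjusted p-values and log2 expression values, used only to look up which genes they list.

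GENCODE M21 (same build) gave symbols, positions and transcript sequences, with 48349 of 48709 IDs matched. Genes were filtered by filterByExpr (16829 kept), scaled by TMM and compared with edgeR 4.0.16 under R 4.3.3, using glmQLFit (robust) and glmQLFTest on the group alone, at a two-sided Benjamini-Hochberg threshold of 0.05; log2 CPM used a prior count of 2. The procedure was tested on simulated data. Alternatives used DESeq2 1.42.0, limma 3.58.1, other scalings and filters, a replicate block and left-out libraries. Since the box held no genome, shared windows were sought in annotated transcripts, a choice made after seeing the data. Members, lists and the rule for named genes (smallest unadjusted p per list; most and least alike in r) were chosen with earlier results of these data known. No pair of libraries within a group was a duplicate (chi-square per degree of freedom 6.22 to 78.2 over 30 pairs).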

Additional observations from a re-analysis of the deposited data

Results flagged for a closer look

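Sham 1 stood apart from the other Sham libraries in its mitochondrial rRNA. Both rRNAs together held 0.807% of its counts, and mt-Rnr1 had 3276 CPM of the library total, and in each case the gap to the next Sham library was large against the range of the group. Chance flags about 1 in 20 groups of values, and 2 of 28 examined here were flagged; the 2 are not independent, since mt-Rnr1 is part of the rRNA sum.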

How the results depend on the processing

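Over 25 alternatives, 0 of 150 values of the 6 measured members passed an adjusted p of 0.05, and the smallest was 0.725; 14 of the 150 changed sign, and the cause was not tested. Libraries with Y-linked counts alone gave mt-Nd1 0.0458, mt-Nd2 0.0171, mt-Nd4 0.0626, mt-Cytb 0.00659 and mt-Co1 0.0519. Limma-voom with sample weights gave mt-Nd1 0.00647, mt-Nd2 0.0316, mt-Nd4 0.0604 and mt-Co1 0.00974, and leaving out Sham 1 and Sham 6 together gave mt-Nd4 0.0448. Leaving out 1 library at a time gave -0.0368 to 0.0055 for mt-Nd1, -0.0694 to 0.0123 for mt-Nd2, -0.0596 to 0.0364 for mt-Nd4, -0.12 to -0.02 for mt-Nd5, -0.09 to -0.02 for mt-Cytb and -0.0625 to 0.00797 for mt-Co1; the positive ends are without Sham 6. With 1 library left out, the summed share in MI minus Sham ran from -0.185 to -0.0210 percentage points, and the median of the 6 from -0.07 to 0.01. The share was -0.0144 in the Y-linked libraries alone and -0.198 in the Xist libraries alone, and the median 0.03 and -0.10. Over all genes, DESeq2 called 6 higher and 4 lower, and the libraries with Y-linked counts alone 101 higher and 110 lower, where edgeR on all 12 called 0. With the replicate number as a block the median of the 6 was -0.03, and 0 genes were called in either direction. Same-numbered libraries did not as a rule deviate together (r from -0.350 to 0.405 over 6 pairs, 1 of them best with its own number). No pairing by number was seen, though 6 pairs could miss a small shared effect. Pairs 2 and 4 each joined a library of the Y-linked set with a library of the Xist set, and had r of -0.350 and -0.319. The other pairs, each within 1 set, ran from -0.124 to 0.405. The sets were not taken out of this check.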

Other observations

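Transfer RNAs of the mitochondrial chromosome gave low counts. Of the 22 genes, 7 were at 0 in every library. Of these, mt-Ts1, mt-Td, mt-Tk and mt-Tg lie wholly inside the stretch that chromosome 1 copies, and mt-Tw, mt-Ty and mt-Th outside it. The part of gene length and of that stretch in the low counts was not tested. The other 15 genes were compared between MI and Sham, and edgeR called 0. Among the 15, 4 had positive and 11 negative log2 fold changes, with a median of -0.04. Over all genes tested 47.6% were positive. The most counted was mt-Tp, with 479 to 1068 counts per library. The copies of mt-Co1 and mt-Co2 on chromosome 2, Gm13340 and Gm13341, held 47 to 203 and 23 to 118 counts per library.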
